A study of Mus musculus with 6 samples.

Results

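The heat shock chaperones examined here are 10 genes of the cytosolic and mitochondrial protein folding machinery: Hspa1a, Hspa1b, Hsph1, Hsp90aa1, Dnajb1, Bag3, Hspa8, Hspd1, Hspe1 and Hsf1. Every probe set assigned to exactly 1 of these symbols was taken. This gave 21 of the 45037 probe sets tested, for 9 of the 10 genes: 5 for Hsp90aa1, 4 for Hspa8, 3 for Hspa1b, 2 each for Hsph1, Dnajb1 and Hspe1, and 1 each for Hspa1a, Bag3 and Hspd1. No probe set in the annotation used carried Hsf1 as its only symbol, so the factor was not analysed here. The genes were selected on the differences between knockout and control signals of these same arrays, which were known when they were put together. The differences are therefore given as a description, without p-values, and nothing is supported with them.

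The arrays measured stem and progenitor cells of the blood (HSPCs), taken from mouse bone marrow by sorting for lineage-negative, c-Kit-positive, Sca1-positive cells. The Med12 knockout arrays came from Med12Flox;MxCre mice, in which the interferon-driven Mx-Cre recombinase deletes Med12, a subunit of the Mediator complex, after injection of the interferon inducer pI:pC. For the control mice no genotype is given, so whether they carried Cre is not known here. Both groups were of B6/129 background and were taken 4 days after pI:pC, with 3 arrays each, and the age of the mice and any pooling are not given. Mx-Cre acts in many interferon-responsive cells besides HSPCs. No label says which arrays are of different animals, and the spread behind each p-value may be technical.

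Chaperones bind unfolded protein and help it to fold, and the heat shock families are named for the members that heat induces. In unstressed cells HSF1 is held inactive by chaperones. Unfolded protein draws these chaperones away, and HSF1 then binds heat shock elements, inverted repeats of the unit GAA, in front of its target genes. Hspa1a and Hspa1b, the inducible HSP70 pair, are kept low without stress in most cells, whereas Hspa8 encodes HSC70, the HSP70 made at all times. Haematopoietic stem cells are known for a low rate of protein synthesis and for their sensitivity to unfolded protein.

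The stretches in front of the HSP70 pair are shown because this pair had the largest differences among the chaperones, and the shorter stretches because they hold the longest run of heat shock element letters near each other member with a match. Sequences are RefSeq's, of build GRCm38.p6, 5′ to 3′ on the strand of the gene. Windows from 250 bases before to 50 bases after the annotated start were held for 7 of the 10 genes, and the letters GAANNTTC and TTCNNGAA were searched. Each is its own reverse complement, so both strands were covered, and matches overlap where units follow each other. Capitals mark matches.
Hspa1a, chr17:34972157-34972406, minus strand, directly upstream of the start and in no annotated gene: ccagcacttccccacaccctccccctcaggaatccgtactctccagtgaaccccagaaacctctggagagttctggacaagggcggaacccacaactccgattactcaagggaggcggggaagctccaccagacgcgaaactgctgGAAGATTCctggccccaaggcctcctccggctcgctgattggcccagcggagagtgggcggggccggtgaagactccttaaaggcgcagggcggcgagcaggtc
Hspa1b, chr17:34959239-34959488, minus strand, directly upstream of the start and in no annotated gene: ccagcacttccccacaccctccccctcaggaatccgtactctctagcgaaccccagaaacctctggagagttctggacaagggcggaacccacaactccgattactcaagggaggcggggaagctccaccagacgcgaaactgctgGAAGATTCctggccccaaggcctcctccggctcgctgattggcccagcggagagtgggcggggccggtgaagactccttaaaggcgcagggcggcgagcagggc
Hspe1, chr1:55088053-55088082, plus strand, upstream of its start and within the annotated span of the divergent gene Hspd1: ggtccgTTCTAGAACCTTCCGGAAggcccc
Hsph1, chr5:149636287-149636316, minus strand, within the gene after its first listed start: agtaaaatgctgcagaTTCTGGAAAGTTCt
Bag3, chr7:128523603-128523632, plus strand, within the gene after its start: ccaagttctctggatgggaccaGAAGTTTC

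The upstream stretches of Hspa1a and Hspa1b differed at 3 of 250 bases, compared without gaps, and each held 1 match, at positions -104 to -97 from the start (position 0). The stretch shared by Hspe1 and Hspd1, the head-to-head genes of the mitochondrial chaperonin, held 3 overlapping matches in a row, at positions -89 to -72 from the Hspe1 start. The second start of Hspd1 reads the same element from the other strand, at positions -144 to -127, and its first start has none. Hsph1 held 1 match upstream of its listed starts, though within the annotated span of the gene, and 2 overlapping matches after them. Bag3 held 1 match after its start. Neither window of Dnajb1 held these letters. In all, 6 of the 7 members with a window held a 2-unit match, as did 17% of 27025 genes and 15.1% of 32851 windows. The 3-unit form, an overlapping pair of these matches that share their middle unit, on either strand, was held by Hsph1, Hspd1 and Hspe1 and by 0.662% of all genes (0.603% of windows). The chaperonin pair is grouped here with the constitutive genes, though heat also induces both through HSF1. A match is a description of the letters and not a binding site.

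**Figure D1:**
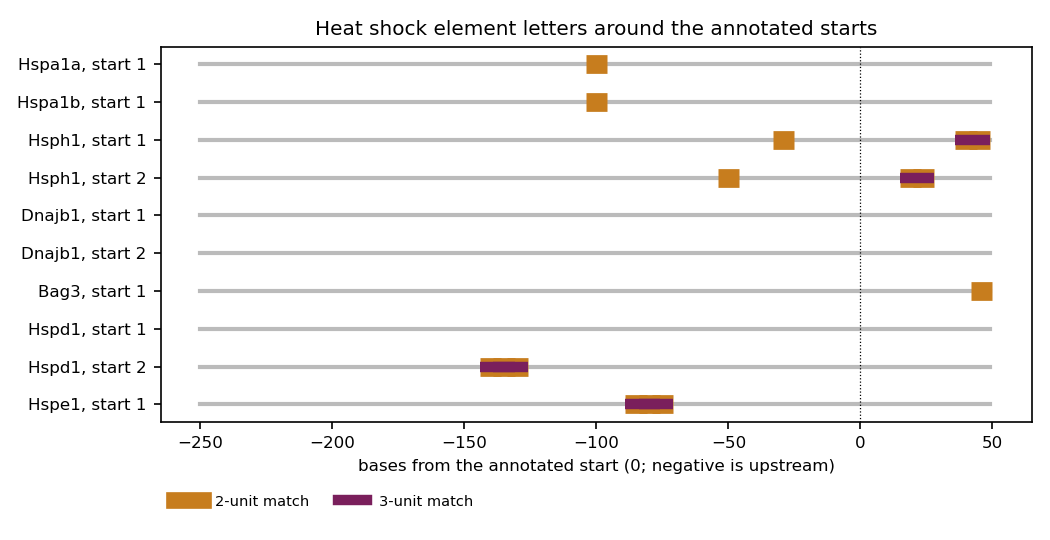
Matches to the 2-unit and 3-unit heat shock element letters (coloured blocks) along each RefSeq window (grey line), in bases from the annotated start, for the 7 members with a window. The matches of the HSP70 pair lie at the same distance, -104 to -97, those of Hspe1 and the second Hspd1 start form 1 run, and Dnajb1 has none.

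The signals were linear and scaled to the same trimmed mean on all 6 arrays. Median signals were 16.5 to 21.3 on knockout arrays and 26.7 to 26.9 on control arrays, and 45.5% to 49.5% and 41.6% to 42.3% of probe sets lay under 16. Pearson correlations across probe sets were 0.965 to 0.972 within knockouts, 0.949 to 0.959 within controls and 0.922 to 0.951 between them. Med12 itself had signals of 89.1, 100.4 and 86.4 in knockouts, against 278.6, 837.4 and 441.6 in controls (log2 difference -2.17, limma's adjusted p = 0.0796). These are of its brightest probe set, the only one read here, which may lie inside or outside the deleted part. The gate gene Kit had signals of 563 ± 51.7 in knockouts and 1082 ± 316 in controls, and the progenitor marker Cd34 had 829 ± 335 in knockouts and 2123 ± 135 in controls (SD, n = 3 each). Both were lower in knockouts without overlap (log2 differences -0.89 and -1.43, limma's adjusted p = 0.152 and 0.132). They are named for having the smallest unadjusted p among 7 measured gate and stem cell markers. Of the 7, 6 were lower and 1, Slamf1, was higher (0.49). Without overlap 4 of the 7 were lower, as were 13.6% of all genes. Ly6a, which encodes Sca1, was not analysed here. The 9 measured genes of the depleted lineages had a summed signal of 130 to 312 in knockouts and 385 to 730 in controls. The brightest of them, S100a8, had 14.0, 56.9 and 247.0 in knockouts and 236.1, 414.5 and 182.5 in controls, so its groups overlapped. Of the 9, 7 were lower and 2 higher, and 2 were lower without overlap, a share to set beside the 13.6% of all genes. In whole-sample RNA, fewer cells of a type and less RNA per cell cannot be told apart. The number of arrays limits the precision.

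The inducible HSP70 genes had low signals in controls and higher ones in every Med12 knockout array. Hspa1a, the cytosolic HSP70 chaperone made on stress, had signals of 103.0, 178.8 and 414.8 in knockouts, against 85.9, 22.3 and 5.4 in controls. The groups did not overlap, but the lowest knockout array and the highest control array lay close together. The difference of log2(signal + 16), knockout minus control as throughout, was 2.30 (SE 0.71).

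Hspa1b, which encodes a nearly identical HSP70, was read by 3 probe sets. The brightest, 1452318_a_at, had signals of 467.4, 542.8 and 1339.7 in knockouts, against 170.1, 17.6 and 2.1 in controls, a log2 difference of 3.89 (SE 0.91). Control replicate 1 stood well above the other controls on this probe set, as it did for Hspa1a. On 1427126_at the signals were 46.5, 111.7 and 309.8 in knockouts and 8.9, 21.6 and 5.5 in controls, a log2 difference of 2.34 (SE 0.61). On 1427127_x_at they were 52.4, 126.1 and 384.9 in knockouts and 20.9, 14.3 and 2.9 in controls, a log2 difference of 2.51 (SE 0.66). On the first of these control replicate 2 was the highest control, and on the other it was control replicate 1, by a small margin. All 4 probe sets of the pair were highest on knockout replicate 3 and lowest on control replicate 3. Because the genes are so alike, and a name ending in _x_at marks probes that may bind related transcripts, the signals cannot be assigned to one or the other with certainty. Of the 12 control signals of the pair 6 lay under 16, where the added 16 makes the log2 difference smaller than the ratio of the signals. Leaving out 1 array at a time, the log2 difference of Hspa1a ran from 1.79 without control replicate 3 to 2.91 without control replicate 1. That of the brightest Hspa1b probe set ran from 3.18 to 4.86 without the same arrays.

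**Figure D2:**
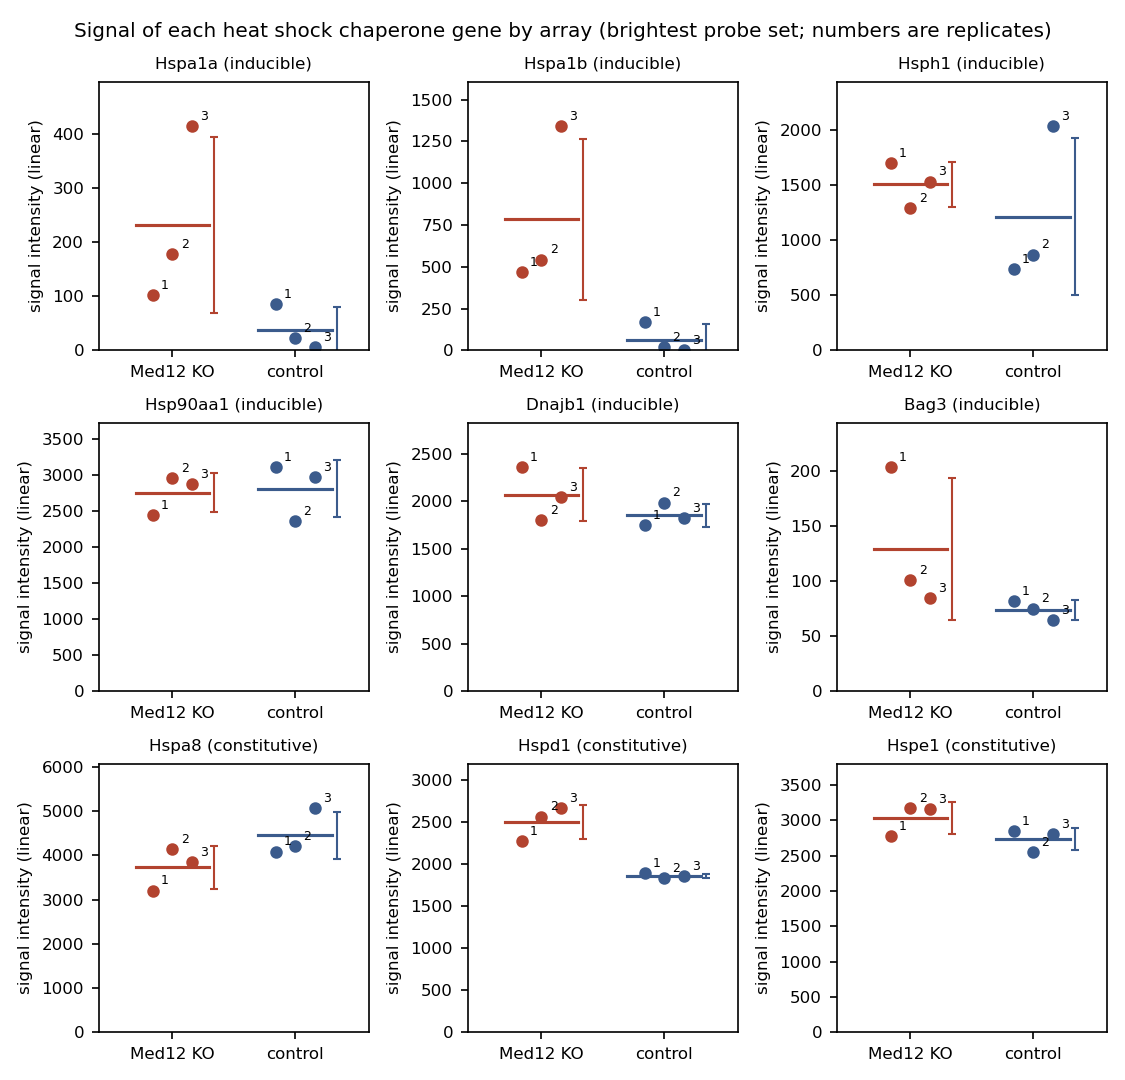
Linear signal intensity of the brightest probe set of each measured chaperone gene on each array, Med12 KO in red and control in blue, with group means (lines) and SD bars (n = 3 each), cut at 0 where they would pass it. The knockout arrays of Hspa1a and Hspa1b lie above all controls with a wide spread, while those of Hsp90aa1, Dnajb1 and Hspa8 overlap the controls.

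The other inducible chaperones had smaller differences, and their probe sets did not all point the same way. Hsph1, the HSP110 that recharges HSP70 with nucleotide, had signals of 781.1, 628.5 and 699.7 in knockouts, against 192.3, 419.3 and 596.6 in controls, on 1423566_a_at (log2 difference 0.91, SE 0.40). Its brighter probe set, 1425993_a_at, had signals of 1694.7, 1288.1 and 1529.5 in knockouts and 735.5, 867.0 and 2030.5 in controls (0.45, SE 0.39). The groups overlapped on the brighter probe set, where control replicate 3 was the highest of all arrays. Without that array the difference was 0.89, and without control replicate 1 it was 0.17. Bag3, a co-chaperone that links HSP70 to selective autophagy, had signals of 203.7, 101.0 and 84.6 in knockouts, against 82.2, 75.2 and 64.5 in controls (0.61, SE 0.31). The groups did not overlap, but much of the difference came from knockout replicate 1, without which it was 0.27.

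Dnajb1, the HSP40 that delivers unfolded protein to HSP70, had signals of 2357.4, 1804.8 and 2046.3 in knockouts and 1750.4, 1986.4 and 1826.8 in controls on its brighter probe set (log2 difference 0.15, SE 0.15). Its dimmer probe set, 1416756_at, had a log2 difference of -0.23 (SE 0.25), so the 2 probe sets disagreed in sign and the groups overlapped on both. Hsp90aa1, the inducible cytosolic HSP90, had signals of 2445.7, 2959.9 and 2871.0 in knockouts and 3108.8, 2361.1 and 2968.7 in controls on its brightest probe set (-0.02, SE 0.16). Its other 4 probe sets had log2 differences of -0.09 to 0.23, and the groups overlapped on all 5. Centring each array on its median moved the brightest to 0.25, as it moved the median of all genes to 0.22.

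Of the constitutive and mitochondrial chaperones, both chaperonin genes had slightly higher mean signals in knockouts, and the HSC70 gene did not. Hspd1, the HSP60 that forms the chaperonin barrel of mitochondria, had signals of 2277.3, 2566.2 and 2666.3 in knockouts, against 1891.0, 1835.1 and 1858.8 in controls. The groups stood clearly apart and the control arrays lay close together, with a log2 difference of 0.42 (SE 0.12). Hspe1, the HSP10 that caps the barrel, had signals of 1777.4, 1826.2 and 2030.8 in knockouts, against 1346.2, 1284.1 and 1339.9 in controls, on 1422579_at (0.50, SE 0.12). On the brighter Hspe1 probe set, 1450668_s_at, the signals were 2776.2, 3169.5 and 3161.8 in knockouts and 2845.4, 2553.4 and 2802.0 in controls (0.15, SE 0.12), and the groups overlapped. Hspa8 had signals of 3199.9, 4141.9 and 3847.0 in knockouts and 4083.1, 4207.9 and 5060.2 in controls on its brightest probe set (-0.26, SE 0.16). A pair of further Hspa8 probe sets were at -0.17 and -0.16, while 1431182_at was at 0.47 (SE 0.38), and the groups overlapped on all 4. After median centring Hspa8 was at 0.02, below the median of 0.22 that all genes then had.

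**Figure D3:**
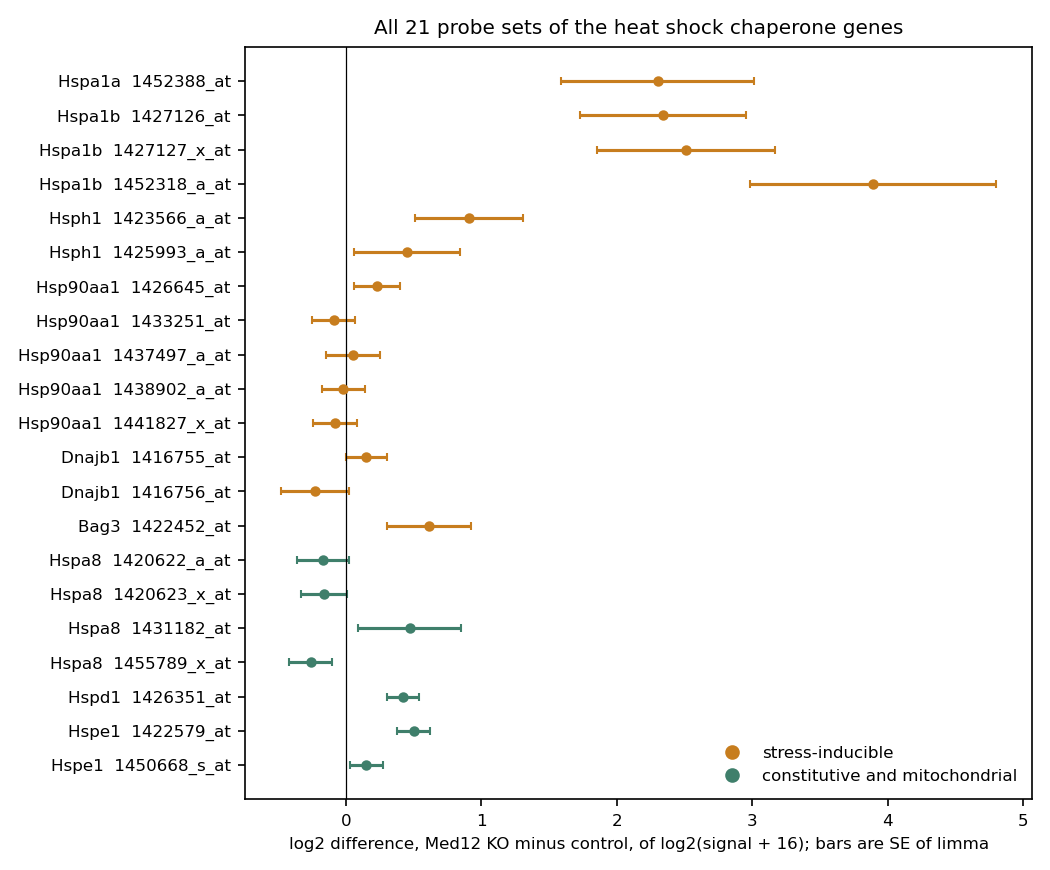
Differences of log2(signal + 16), Med12 KO minus control, for all 21 probe sets of the chaperone genes, with limma's SE as bars, inducible genes in orange and constitutive and mitochondrial genes in green. The 4 probe sets of the HSP70 pair lie between 2.30 and 3.89, and the remaining 17 between -0.26 and 0.91.

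In limma's fit over the whole table, 0 of the 21 probe sets passed an adjusted p of 0.05, in a comparison where 0.762% of all probe sets did (0.220% higher and 0.542% lower). At an unadjusted p under 0.05 there were 6, where 15.7% of all probe sets reached it. The mean log2 signal was higher in knockouts for 14 of the 21, as it was for 38.8% of all probe sets. Knockout and control signals did not overlap for 8 of the 21, all higher in knockouts. Over all probe sets, 7.61% were higher and 13.3% lower without overlap. The 8 were the 4 of the HSP70 pair, 1 each of Hsph1 and Hspe1, and those of Bag3 and Hspd1. With the same arrays having been known when the genes were chosen, nothing is read from these counts.

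Set against each other, the inducible genes differed by more than the constitutive ones, and this rested on the HSP70 pair. With 1 probe set per gene, the brightest, the median log2 difference was 0.53 over the 6 inducible genes and 0.15 over the 3 constitutive genes, beside -0.05 over all 18193 genes. Without knockout replicate 1 these medians were 0.32 for the inducible and 0.21 for the constitutive genes. On each array, the mean log2 signal of the inducible genes minus that of the constitutive genes was -1.95, -2.28 and -1.83 in knockouts and -2.66, -3.27 and -3.49 in controls. All 3 knockout arrays lay above all 3 controls, and the means of -2.02 ± 0.23 and -3.14 ± 0.43 (SD, n = 3 each) differed by 1.12. Without Hspa1a and Hspa1b, a choice made after seeing the data, the values were -1.17, -1.77 and -1.71 in knockouts and -1.82, -1.79 and -1.62 in controls. The groups then overlapped, and the difference of 0.19 was smaller than the pooled SD of 0.24. Only differences between groups are read from this measure, since the levels of different probe sets are not comparable.

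**Figure D4:**
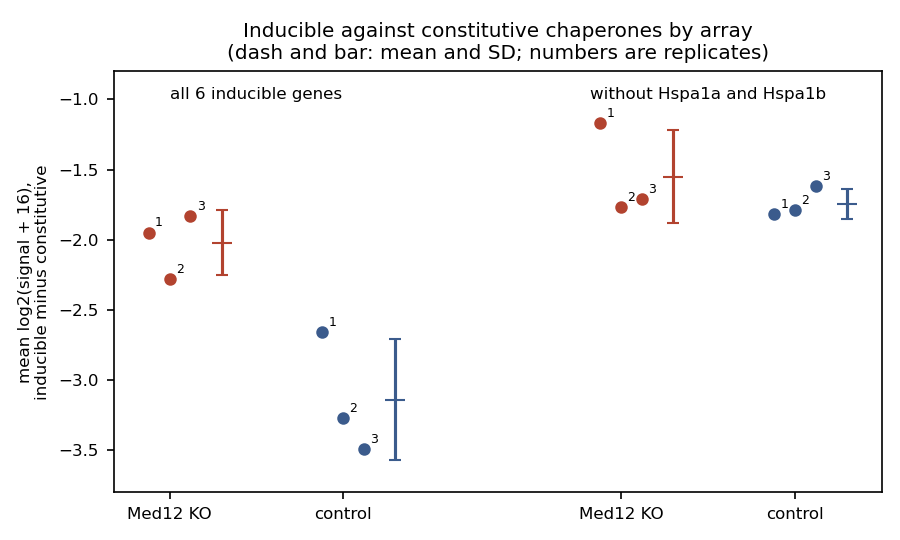
Mean log2(signal + 16) of the inducible genes minus that of the 3 constitutive genes on each array, Med12 KO in red and control in blue, with mean and SD (n = 3 each). The groups stand apart with all 6 inducible genes (means -2.02 and -3.14) and overlap without Hspa1a and Hspa1b (means -1.55 and -1.74).

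The members also differed in how far arrays of the same group lay from each other. The SD of log2 values within groups, pooled over both, stood at percentiles of 97.9 to 99.8 among all 45037 probe sets for the 4 probe sets of the HSP70 pair. For the brightest Hspa1b probe set it was 0.81 in knockouts and 1.74 in controls. The Hsph1 probe sets were at percentiles of 86.8 and 87.2. Hspd1 and Hspe1 were among the steadiest, at percentiles of 6.3 to 8.9, with SDs of 0.10 to 0.12 in knockouts and 0.02 to 0.08 in controls. Bright probe sets vary less on this scale than dim ones, and the percentiles were not adjusted for that.

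With 1 probe set per gene, the brightest, the wider chaperone machinery showed no call. Of 109 further chaperone and co-chaperone genes listed, 104 were measured. Hsp90ab1, the constitutive HSP90, was among the 5 not analysed here. In limma's fit 0 of the 104 passed, where 0.989% of all genes did (0.352% higher and 0.638% lower), and 20 (19.2%) had an unadjusted p under 0.05, close to the 18.2% of all genes. Of the 104, 68 had a higher mean log2 signal in knockouts (65.4%), as did 42.2% of all genes, and the median log2 difference was 0.13, beside -0.05 for all genes. Median centring of the arrays moved these shares to 89.4% and 72.6%, with medians of 0.41 and 0.22. Quantile normalization gave 71.2% and 53.7%, and loess 64.4% and 50.7%. Signals did not overlap for 22 that were higher and 3 that were lower (21.2% and 2.88%), beside 9.85% and 13.6% of all genes.

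Co-chaperones that work with HSP70 and HSP90 had some of the larger differences. Stip1, which passes client proteins from HSP70 to HSP90, had signals of 698 ± 75.6 in knockouts and 357 ± 78.5 in controls (SD, n = 3 each), a log2 difference of 0.96 (limma's adjusted p = 0.105). The HSP90 activator Ahsa1 was at 0.57 (adjusted p = 0.131) and the calcyclin-binding protein gene Cacybp at 0.46 (adjusted p = 0.141). Of 21 genes in this list 13 were higher, with a median of 0.17.

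Among cytosolic J-domain proteins, partners that start the HSP70 cycle, 10 of 12 were higher (median 0.27). Dnaja4 (log2 difference 0.63) and Dnaja2 (0.40, though its 4 probe sets did not share a sign) were higher without overlap. Dnajb5 was lower without overlap (-1.30, limma's adjusted p = 0.249), with low signals of 17.8 ± 19.2 in knockouts and 61.9 ± 27.3 in controls (SD, n = 3 each). Of the other Dnajb5 probe sets 1 did pass (-1.11, limma's adjusted p = 0.0424) and another was at 0.35. The HSP70 and HSP110 paralogs had a median of 0.10 over 8 genes. Hspa14, an HSP70 relative bound to ribosomes, was at 0.58 (adjusted p = 0.125) and its 3 probe sets shared the sign. Hspa4, an HSP110 relative, was at 0.32 and Hspa2, best known from the testis, at -0.45. Hspa4, which also stands in the co-chaperone list, has 4 probe sets that did not share a sign.

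TRiC, the cytosolic chaperonin that folds actin and tubulin, and prefoldin, which delivers to it, had 11 of 14 genes higher (median 0.14). The largest among these were Pfdn4 at 0.96 (limma's adjusted p = 0.128), Pfdn6 at 0.74 and the TRiC subunit Cct8 at 0.56. A very dim further probe set of Cct8 was at -0.03. Mitochondrial chaperones and proteases had 10 of 14 higher (median 0.30). They included the protease subunit Afg3l2 (0.70, adjusted p = 0.102), the nucleotide exchange factor Grpel1 (0.58), the mitochondrial HSP70 gene Hspa9 (0.33) and the mitochondrial HSP90 gene Trap1 (0.29). The probe sets of Hspa9 did not share a sign, with 1 at -0.11, nor did those of Trap1, with 1 at -0.07. Chaperones of the endoplasmic reticulum, many of which answer to the unfolded protein response, had 13 of 20 higher (median 0.09). Of these Dnajb11 was at 0.68 (adjusted p = 0.0859) and Manf at 0.60, whereas the HSP70 gene Hspa5 was at 0.28 and the HSP90 gene Hsp90b1 at 0.03. A dim further probe set of Hspa5 was at -0.15. Serpinh1, a collagen chaperone gene that heat also induces through HSF1, was at -0.83. It was dim, at 9.73 ± 8.37 in knockouts and 29.5 ± 12.8 in controls (SD, n = 3 each), and the groups overlapped. Its other probe set was at -0.78 (limma's adjusted p = 0.0694) and dimmer, at 0.633 ± 0.115 in knockouts and 12.6 ± 2.8 in controls. On that probe set knockouts were lower without overlap, as on 13.3% of all probe sets.

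Small heat shock proteins, which hold unfolded protein without ATP, split 5 to 5, with a median of -0.06 that turned to 0.22 after median centring and 0.01 after quantile normalization, and was -0.01 after loess. Hspb6 was at 0.87, Hspb9 at 0.50 and Hspb8, the partner of Bag3, at -0.94, with adjusted p-values in limma's fit of 0.280, 0.350 and 0.294. Hspb7, Hspb9 and Cryaa stayed under a signal of 16 on all arrays. Hspb8 was also dim, with signals of 4.3, 3.1 and 1.4 in knockouts and 5.1, 23.7 and 40.3 in controls. Its other probe sets were at -0.56 and 0.10. In the HSF family list, 6 genes had a median of -0.03, which turned positive under each scaling tried (0.25 with median centring, 0.07 with quantile and 0.06 with loess normalization). Hsf2, a second heat shock factor, had signals of 27.4 ± 11.4 in knockouts and 31.8 ± 4.85 in controls (SD, n = 3 each; log2 difference -0.17), a sign that turned to 0.11 after each of the 3 normalizations tried. Hsf4 was at -0.28, and Hsbp1, a binding partner of HSF1, was at 0.04.

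**Figure D5:**
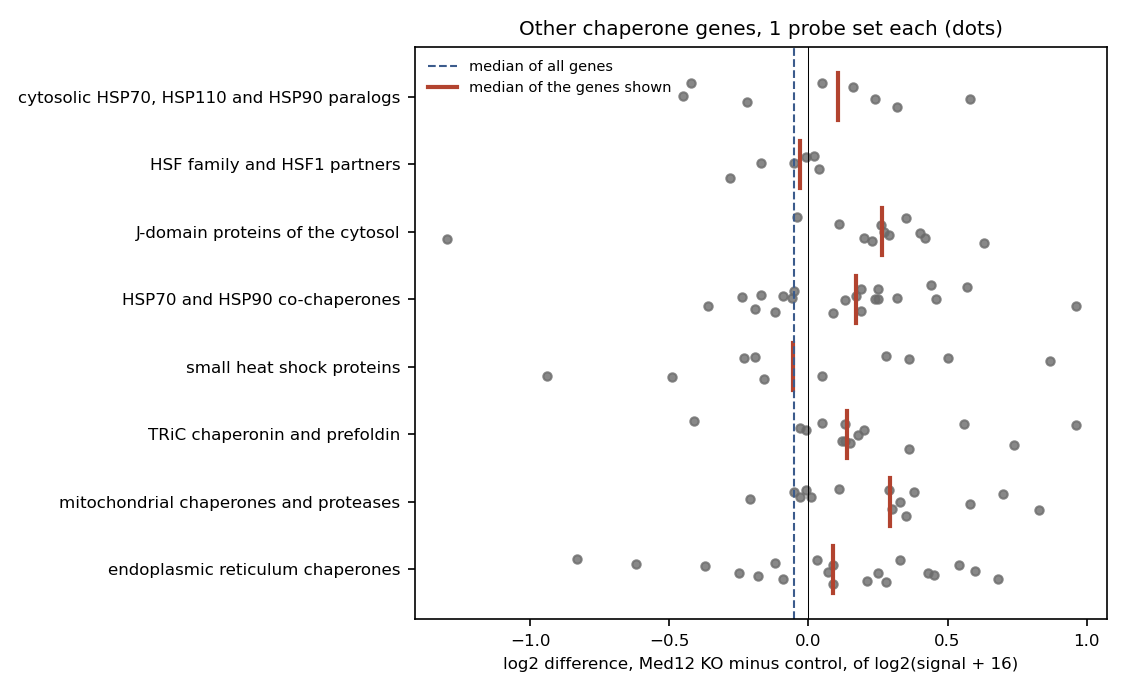
Differences of log2(signal + 16), Med12 KO minus control, of the 104 other chaperone genes (dots, 1 probe set each, jittered vertically), with the median of each list in red and the median of all genes (-0.05) as a dashed line. The dots run from -1.30 (Dnajb5) to 0.96 (Stip1 and Pfdn4), and the medians of the 8 lists run from -0.06 to 0.30.

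Genes with 3-unit heat shock element letters in a RefSeq window were also counted over the table. Of 88 such genes measured, 46 were higher in knockouts (52.3%), with a median log2 difference of 0.02. Over the 14452 measured genes with a window 43.1% were higher, with a median of -0.05. The 88 include the members Hsph1, Hspd1 and Hspe1, which were chosen on these same arrays and were all higher. Of 2171 measured genes with a 2-unit match 43.1% were higher, with a median of -0.05, the same as over all genes with a window. The 1 of the 88 to pass limma's test was the pseudouridine synthase gene Pus7, which rose and is named because it was the only call. Of the 14452 measured genes with a window 54 passed as higher and 91 as lower, so nothing is read from this call.

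Other stress and cell type genes were measured beside the chaperones. Immediate early genes, which heat and cell handling also induce, were lower in knockouts in 19 of 20 cases, as were 10515 of all 18193 genes. The summed signal of the 20 was 8503 to 9681 in knockouts and 12014 to 23050 in controls. Their median was -0.73, where the inducible chaperones, chosen on these same arrays, had 0.53. Of the 20, 0 passed limma's test and 8 had an unadjusted p under 0.05, beside 18.2% of all genes. The part of heat or handling in these differences was not tested. The feedback gene Zfp36 was at -1.53 (adjusted p = 0.0689) and Ier2 at -0.77 (adjusted p = 0.203).

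Signals of progenitor and lineage markers differed between the groups. Of 17 erythroid markers 15 were higher in knockouts, as were 42.2% of all genes. In limma's test 8 passed as higher and 0 as lower, where 0.352% of all genes passed as higher and 0.638% as lower. Among the 8 was Rhag, a red cell membrane gene, at 2.87 (limma's adjusted p = 0.0234). The anion exchanger gene Slc4a1 went the other way without overlap, at 13 ± 1.07 in knockouts and 92.8 ± 83.8 in controls (SD, n = 3 each; -1.60, limma's adjusted p = 0.26), and is named here after its values were seen. The summed signal of the 17 erythroid markers was 11172 to 16514 in knockouts and 5196 to 5948 in controls, highest on knockout replicate 3. Of 15 granulocyte-monocyte markers 14 were lower and 8 passed as lower, among them the neutrophil elastase gene Elane at -5.44 (adjusted p = 0.0199). The summed signal of the 15 was 1439 to 2982 in knockouts and 11641 to 20111 in controls. All 14 early lymphoid markers were lower and 6 passed as lower, with sums of 940 to 2046 in knockouts and 6531 to 8949 in controls. All 19 mitotic genes were higher and 0 passed, with 16 at an unadjusted p under 0.05, beside 18.2% of all genes. The mitotic sums were 17767 to 22116 in knockouts and 11753 to 13979 in controls. Of the markers of these 4 lists, none was at 0 on all arrays and Hba-a1, an adult globin gene, stayed under 16 throughout. The part of these genes' cells or of cell division in the chaperone differences was not tested.

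The 5 genes whose profile over the 6 arrays lay nearest to the mean profile of the inducible chaperones were searched among 9380 genes with a mean signal of at least 50. The measure was the root mean square distance of log2(signal + 16) after each profile was centred on its own mean. They were Psmd9 (0.097), a proteasome assembly factor, Mns1 (0.110), the stem cell transporter gene Abcg2 (0.121), Mtfp1 (0.142), a mitochondrial fission gene, and Mrps18b (0.147), a mitochondrial ribosomal protein. Psmd9 had signals of 265.0, 306.1 and 378.3 in knockouts and 197.6, 106.7 and 107.1 in controls. As with Hspa1a, it was highest on knockout replicate 3 and, among controls, on replicate 1. The 6 inducible genes themselves lay at distances of 0.554 to 1.575 from their own mean profile, so no single one of them followed it closely. That profile rests largely on the HSP70 pair, itself chosen on these arrays. The inducible mean differed by 1.23 between groups with Hspa1a and Hspa1b and by 0.30 without them.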

How the data were processed

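Gene expression was measured on arrays of HSPC RNA, 3 Med12 knockout and 3 control, from 5 ng total RNA amplified with the Ovation system, per the labels' protocols. The authors deposited 1 linear signal intensity per probe set and array. The submitters' processing notes name RMA, but the deposited intensities are linear and include zeros, so how they were made is not given in the sources used here. None of the deposited value columns went unused (0).

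Of 45101 probe sets, 64 controls were left out. The platform annotation of 2016 gave 34945 probe sets 1 symbol, 932 several and 9160 none. For each of 18193 genes the brightest probe set (highest mean signal) stood for the gene. The comparison used limma 3.58.1 (R 4.3.3; lmFit, eBayes, two-sided) on log2(signal + 16), with 4 degrees of freedom between arrays and 1.96 from the prior. P-values were adjusted by Benjamini-Hochberg over 45037 probe sets, with a threshold of 0.05. The fit was tested on simulated data. Sequences and gene spans are RefSeq's, GRCm38.p6, and 7 of the 10 members matched a promoter window. Members, lists and the offset were chosen with earlier results of these data known. Named genes were all members, fixed paralogs, genes past the threshold, up to 3 per chaperone list and up to 2 per context list by unadjusted p, and the 5 nearest profiles. Alternatives were 3 normalizations, other offsets, filters on dim probe sets, another prior, array weights, a replicate block, leaving out each array and averaging the probe sets of a gene.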

Additional observations from a re-analysis of the deposited data

How the results depend on the processing

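Of all probe sets, 99 passed limma's test as higher in knockouts and 244 as lower, 343 together. With 1 array left out 0 to 10 passed: 0 without knockout replicate 1 or 3, 3 without knockout replicate 2, 8 without control replicate 1 or 2 and 10 without control replicate 3, with 5340 to 7141 at an unadjusted p under 0.05. With the replicate block 0 passed, and 6752 had an unadjusted p under 0.05. The count was 693 after median centring (431 higher and 262 lower), 712 without the dimmest 25% of probe sets and 763 without the dimmest 50%. Deviations of same-numbered arrays from their group means correlated at 0.002 to 0.019 over all probe sets, and those of other-numbered arrays at -0.057 to 0.034. The labels give only a replicate number. A correlation over all probe sets cannot exclude a pairing that touches few genes. Members past the threshold numbered 0 with any 1 array left out and 1 after either filter on dim probe sets (the brightest Hspa1b probe set). Other chaperone genes past the threshold numbered 0 with any 1 array left out and 2 after median centring (Afg3l2 and Dnajb11).

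The inducible median ran from 0.32 (without knockout replicate 1) to 0.71 with 1 array left out. The constitutive median moved to 0.42 after median centring and to 0.32 when the probe sets of each gene were averaged. The difference between inducible and constitutive genes ran from 0.95 to 1.36 with 1 array left out and was 0.19 without Hspa1a and Hspa1b. It was 0.78 with 64 added before log2 in place of 16, and 1.35 with 4 added. Hspa1a was at 1.48 with 64 added and 2.84 with 4. The brightest Hspa1b probe set was at 2.83 with 64 added and 4.63 with 4. Of the 21 member probe sets, 13 were higher in knockouts in all of 16 alternatives, and 8 turned sign in at least 1. After median centring, which moved the median of all genes to 0.22, Hsp90aa1 was at 0.25, Hspa8 at 0.02 and Hsf2 at 0.11, and Hsf2 was also at 0.11 after quantile and loess normalization. After loess Hsbp1 was at -0.02 and Hsp90b1 at -0.04. With probe sets averaged, Dnajb1 was at -0.04 and Hspa4 at -0.19. With 1 array left out, the lowest and highest values were -0.05 and 0.19 for Hsbp1, -0.07 and 0.19 for Hsp90b1, and -0.36 and 0.00 for Hsf2. The causes were not tested.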
